A study of Homo sapiens with 14 samples.

Results

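The 5′ untranslated regions (5′ UTRs) of coding transcripts were described in 4 reactivity profiles of K562, an established human erythroid leukemia cell line. A 5′ UTR was taken from each protein-coding transcript that was present in all 4 profiles, had the length given by GENCODE release 44 (GRCh38) and had an annotated start codon. Of several such transcripts of a gene the most abundant by mean RPKM was used, and its 5′ UTR was kept where at least 30 of its nucleotides had a score in all 4 profiles. Of 20512 transcripts in any profile, 10589 were in all 4, 5749 of these were protein coding, 3419 had an equal length and 3069 had an annotated start codon. These came from 1287 genes outside the mitochondrial genome, and 1034 of them gave a 5′ UTR with enough scored nucleotides. The other 253 genes were left out, 64 of them with no scored nucleotide in the 5′ UTR.

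By the labels, the 14 libraries were 3 icSHAPE in vivo, 2 icSHAPE in vitro and 3 DMSO controls, and 2 icLASER in vivo, 2 icLASER in vitro and 2 controls without UV. In vivo samples were treated as cells, and in vitro samples were RNA isolated from K562 and refolded. Treatment was with 100 mM NAI-N3 for 5 min in icSHAPE, and in icLASER with NAz-N3, added from a stock of 1 M, and 10 min of UV light. The authors pooled the libraries of a reagent and condition into 1 profile and scored both conditions of a reagent against the same kind of control, so no value here has a replicate check, the in vivo and in vitro values of a reagent are not independent, and the read depth is unknown.

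Of 10 erythroid marker genes, the profiles held all but TAL1. The fetal globin gene HBG1 ranged from 1225 to 2652 RPKM and the embryonic globin gene HBZ from 260 to 521 RPKM, and the erythroid factors GATA1 and KLF1 ranged from 73.0 to 99.7 and from 53.8 to 71.3 RPKM. Of the markers of other blood lineages, CD3E, MS4A1, MPO and CD14 were in no profile, and LYZ ranged from 10.6 to 31.4 RPKM.

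The 5′ UTR runs from the capped end of an mRNA to its start codon, and the small ribosomal subunit is recruited near the cap and scans this region for the start codon. Stable stems, upstream open reading frames and bound proteins in the 5′ UTR are known to control how often an mRNA is translated. The 2 reagents read different features of a nucleotide. NAI-N3 acylates the 2′-hydroxyl of flexible nucleotides, which are mostly unpaired, and light-activated NAz-N3 reacts at C8 of purines that are open to solvent, so a bound protein or a fold can shield a base from it. A score runs from 0 to 1 and compares the reagent's reverse transcription stops with those of the control. In every profile, 100% of the 1034 transcripts reached a highest score of 1.00, so the scale is set within each transcript and a score is not an absolute reactivity.

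The 5′ UTRs were 36 to 2014 nt long with a median of 149 nt, and their GC share ranged from 32.5% to 90.7% with a median of 63.6%. They held 213073 nucleotides, of which 175218 (82.2%) were scored in all 4 profiles. The first 6 nucleotides of a transcript carried no score, and in 737 of the 1034 transcripts the shared score began at nucleotide 7. The 5′ UTR lay in a single exon in 484 transcripts and was spliced from several exons in 550. Mean RPKM over the 4 profiles ranged from 6.47 to 2520 with a median of 17.1.

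The transcripts were mostly not the reference isoforms of their genes. Only 31 of the 1034 were the MANE Select transcript, the isoform that Ensembl and RefSeq agreed on, and 1003 were other isoforms. In 281 of the 5′ UTRs (27.2%), some nucleotides were coding sequence in another annotated transcript of the gene, which came to 15.3% of all 5′ UTR nucleotides. A read in exons that isoforms share can count for each of them, so a score can hold reads from isoforms in which the same bases lie elsewhere. Of the 1034 members, 10 shared genomic nucleotides with another member.

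The stretches of 30 nt with the largest difference between cells and refolded RNA show what the profiles measure base by base. They were chosen for this difference among 5′ UTRs with a mean RPKM of at least 20, so their values are a description. Each sequence is in DNA letters on the strand of the transcript, 5′ to 3′, from GENCODE release 44, and capitals mark nucleotides whose score moved by at least 0.3 in the direction for which the stretch was chosen.

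For icSHAPE, the stretches shown among those lowest in vivo relative to in vitro were the following.
LDB1 (chr10:102114783-102114812, minus strand): CTGCTCGGAGGCAGaGGCAGcAAGAGGcGG
NFE2 (chr12:54295626-54295655, minus strand): AAACACAGCAaaACAGAAAaaCAGAagATC

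For icSHAPE, the 3 stretches that were highest in vivo relative to in vitro were the following.
CACYBP (chr1:175000594-175004637, plus strand, across an intron): TgGaAGCTAcAGAAagATCtAGaagaGGTA
UBA2 (chr19:34458763-34458792, plus strand): CcaAAgATTttTTTgAATAaacaaccaAac
NAP1L1 (chr12:76068944-76068973, minus strand): tCAagATttgGatGaTGTTGAaGAAGtaGa

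For icLASER, the 3 stretches lowest in vivo relative to in vitro come first, and UQCRHL and LAMTOR5 were among the highest.
RPL23A (chr17:28720575-28720604, plus strand): CTCCTGACACTTGTGATgtcttcAAaggaa
RPL38 (chr17:74203623-74203652, plus strand): GTACCCAgtttcctccGTTGGGaggGTTTA
NDUFV2 (chr18:9104133-9104162, plus strand): gTccgaggGTaTtCTAGGtGGaAaGgacAA
UQCRHL (chr1:15808261-15808290, minus strand): gcaccactgctctcCaGccAgGTGACaGAG
LAMTOR5 (chr1:110407623-110407652, minus strand): TgGgtTcTgAGccGGagtGgTcGGtGgGtg

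The 5′ UTR of LDB1, an adaptor protein that joins enhancers and promoters in erythroid cells, held the icSHAPE stretch with the most negative difference. Mean icSHAPE scores of 0.896 in vitro and 0.194 in vivo stood beside icLASER scores of 0.991 and 0.912. The stretch of NFE2, an erythroid transcription factor subunit, had icSHAPE scores of 0.920 in vitro and 0.297 in vivo and icLASER scores of 0.683 and 0.332. Both scores were lower in cells in both stretches, with a difference of -0.703 in icSHAPE and -0.0789 in icLASER in LDB1 and of -0.624 and -0.352 in NFE2.

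The stretches with higher icSHAPE scores in cells were partly coding in other isoforms. In CACYBP, which encodes a calcyclin-binding protein, the icSHAPE scores averaged 0.163 in vitro and 0.713 in vivo, and 24 of the 30 nt were coding in another transcript. The icSHAPE scores were 0.140 and 0.552 in UBA2, a subunit of the SUMO-activating enzyme, also with 24 nt coding elsewhere. In NAP1L1, a nucleosome assembly protein, they were 0.184 and 0.586, and all 30 nt were coding in another transcript. The stretches of LDB1 and NFE2 had no such nucleotide.

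The icLASER stretches with the largest loss lay in genes of the ribosome and of respiratory complex I. In RPL23A, a protein of the large ribosomal subunit, the stretch covered nucleotides 7 to 36, and its icLASER scores averaged 0.598 in vitro and 0.0534 in vivo, with icSHAPE scores of 0.354 and 0.0225. In RPL38, another protein of that subunit, the icLASER score was 0.655 and 0.155 and the icSHAPE score 0.125 and 0.234. NDUFV2, a subunit of complex I, had icLASER scores of 0.633 and 0.167 and icSHAPE scores of 0.40 and 0.133. The icSHAPE score in vivo was thus higher in RPL38 and lower in the other 2 stretches. Ribosomal protein genes have many processed copies in the genome, so reads of RPL23A and RPL38 may be shared with them.

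Higher icLASER scores in cells were found in UQCRHL and LAMTOR5. The icLASER scores averaged 0.0216 in vitro and 0.361 in vivo in UQCRHL, a near-identical copy of the complex III gene UQCRH, so that this value is uncertain. For LAMTOR5, a subunit of the lysosomal Ragulator complex, the icLASER score was 0.331 and 0.629, and all 30 nt were coding in another transcript. The icSHAPE score of the LAMTOR5 stretch was lower in vivo (0.467 and 0.268).

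The question of how the 5′ UTR compares with the rest of the mRNA was addressed within each transcript. The median over 5′ UTRs of the mean icSHAPE score was 0.188 in vitro (quartiles 0.138 and 0.250) and 0.213 in vivo (0.169 and 0.263). The median icLASER score was 0.243 in vitro (quartiles 0.177 and 0.313) and 0.191 in vivo (0.136 and 0.255). In the coding sequences (CDS) of 1032 of the same transcripts, the medians were 0.163 and 0.193 for icSHAPE and 0.173 and 0.173 for icLASER. In 865 3′ UTRs they were 0.115 and 0.145, and 0.111 and 0.171. The 5′ UTR was thus the region of highest median score in all 4 profiles.

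Within a transcript, the 5′ UTR exceeded the CDS in icSHAPE by a median of 0.0292 in vitro and 0.0204 in vivo, with 654 and 642 of 1032 transcripts higher. For icLASER the excess was 0.0716 in vitro, with 772 transcripts higher, and 0.0190 in vivo, with 575 higher. The icLASER excess in vivo was -0.000701 when the first 50 nt were left out and -0.000862 among 5′ UTRs with at least 100 scored nt. Against a stretch of the CDS of the same length right after the start codon, the excess was 0.0174 and 0.00439 for icSHAPE and 0.0418 and 0.0161 for icLASER, in vitro and in vivo. The step from 5′ UTR to CDS was therefore smaller than the difference from the whole CDS.

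The excess was also computed with base composition taken into account. A score was set against the mean score of its trinucleotide (the base with both neighbours) over the whole transcripts in the same profile. With this context removed, the excess over the CDS was 0.0529 in vitro and 0.0530 in vivo for icSHAPE and 0.0810 and 0.0284 for icLASER. The share of transcripts with the higher score in the 5′ UTR was then between 62.7% (icLASER in vivo) and 77.5% (icLASER in vitro).

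The difference between cells and refolded RNA had opposite signs for the 2 reagents. In icSHAPE, the median in vivo minus in vitro difference over 5′ UTRs was 0.0238 (quartiles -0.0153 and 0.0604), with 672 of 1034 higher and 356 lower in vivo, but it was -0.00938 when each profile was divided by its own mean. In icLASER the median was -0.0433 (quartiles -0.0866 and -0.00401), with 791 lower (76.5%) and 237 higher, and it was -0.0444 after the same division. The icSHAPE sign thus depended on the scale of the profiles, whose mean scores over these transcripts were 0.153 in vitro and 0.181 in vivo, and the icLASER sign did not, with means of 0.166 and 0.167. With the trinucleotide context removed, the icSHAPE difference was 0.00283 and the icLASER difference was -0.0426. The context means were taken within each profile, so this step also takes out the offset between the profiles. The icSHAPE difference was then 0.000905 in CDS and -0.00120 in 3′ UTRs. The icSHAPE value therefore does not separate base composition from the scale of the profiles. Scores of exactly 0 made up 65.4% of 5′ UTR nucleotides in vitro and 49.0% in vivo in icSHAPE, and 51.7% and 59.1% in icLASER. Scores of at least 0.5 made up 15.0% and 16.1% in icSHAPE, and 18.7% and 14.8% in icLASER. In icSHAPE the share of zeros thus differed more than the share of high scores.

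A difference of at least 0.05 in either direction was used to count 5′ UTRs. For icSHAPE, 323 5′ UTRs were higher in vivo by that much, 31.2% against 26% of all 2931 regions (5′ UTR, CDS and 3′ UTR), and 127 were lower, 12.3% against 5.87%. In the CDS stretches of equal length after the start codon, 38.1% were higher in icSHAPE by that much and 8.54% were lower, so 5′ UTRs were not more often higher than those stretches. For icLASER, 472 were lower, 45.6% against 18.9% of all regions, and 76 were higher, 7.35% against 22.3%. Of the CDS stretches of equal length, 34.5% were lower in icLASER by that much and 8.24% were higher, which is nearer to the 5′ UTRs. A 5′ UTR is a shorter stretch than a CDS, so its mean varies more, and this bears on counts in both directions. Of the CDS, 75 were lower in icLASER by at least 0.05 and 94 were higher, and of the 3′ UTRs, 6 were lower and 483 higher.

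How much of a single 5′ UTR's difference is repeatable within the profiles was read from its odd and even nucleotides taken apart. The gap between the 2 values had a median of 0.0340 for icSHAPE and 0.0330 for icLASER, which is close to the size of the median differences themselves. The sign was the same in both sets of nucleotides in 74.3% of 5′ UTRs for icSHAPE and 81.2% for icLASER, and in 77.6% and 86.8% of the 295 5′ UTRs with at least 200 scored nt. Neighbouring nucleotides come from the same libraries, so this gap covers variation along a sequence and not variation between libraries.

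The directions of the 2 reagents in the same 5′ UTR depended on the scale. In 530 of the 1034 (51.3%), the icSHAPE mean was higher and the icLASER mean lower in vivo, both means were lower in 259, both were higher in 140, and icSHAPE was lower with icLASER higher in 96. After each profile was divided by its own mean, both were lower in 441 (42.6%), and icSHAPE was higher with icLASER lower in 360 (34.8%). Across the 1034 5′ UTRs, the differences of the 2 reagents had a Spearman rho of -0.0460, whereas the levels had a rho of 0.639 in vitro and 0.320 in vivo. These points share libraries within a reagent, and the scale of each transcript.

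The icLASER difference formed a gradient along the mRNA. With each transcript cut into 10 equal parts from the 5′ end, the median icLASER difference went from -0.0495 in part 1, through -0.00194 in part 5, to 0.123 in part 10. The icSHAPE difference stayed between 0.0204 and 0.0379 in all 10 parts. In the stretch of CDS that matched the 5′ UTR in length, the icLASER difference was -0.0287, with 356 of 1031 stretches lower and 85 higher by at least 0.05, against -0.0438 in the 5′ UTRs of the same transcripts. What set this gradient was not tested.

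The scores were highest next to the 5′ end. At nucleotides 7 to 20, the mean over 848 5′ UTRs was 0.290 and 0.30 for icSHAPE (in vitro, in vivo), and 0.361 and 0.291 for icLASER. At nucleotides 41 to 60 it was 0.173 and 0.192 for icSHAPE and 0.231 and 0.179 for icLASER. Beyond nucleotide 400, in 106 5′ UTRs, it was 0.132 and 0.165, and 0.159 and 0.126. The decline was steep within the first 40 nt and shallow after it. Later positions were reached by longer 5′ UTRs only, which had lower scores, so the decline mixes position with length. From nucleotides 7 to 20 to those beyond 400, the share of scores at 0 also rose. It went from 55.3% to 74.6% in icSHAPE in vitro and from 51.7% to 70.7% in icLASER in vivo.

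The high scores at the 5′ end came with a large share of scores at the upper limit. Between 17.2% and 24.0% of the nucleotides from 7 to 20 had a score of exactly 1.00, against 7.42% to 10.8% at nucleotides 41 to 60. Reverse transcription runs towards this end, and full-length products stop there, so the part of run-off products in these scores was not tested. The icLASER difference was -0.0693 at nucleotides 7 to 20, -0.0512 at nucleotides 41 to 60, -0.0299 between nucleotides 200 and 400 and -0.0338 beyond them. The icSHAPE difference was 0.00985, 0.0194, 0.0362 and 0.0334 at these positions.

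At an equal distance from the 5′ end, 5′ UTR and CDS nucleotides could be set side by side. Between nucleotides 100 and 200, the icSHAPE mean in vivo was 0.194 in 665 5′ UTRs and 0.220 in 655 CDS, and the icLASER mean in vivo was 0.171 and 0.186. The 5′ UTR was thus not the more reactive region at that distance on the deposited scale. The icLASER difference at these nucleotides was -0.0392 in 5′ UTRs and -0.0374 in CDS. With context removed the icSHAPE means in vivo were 0.0450 and 0.0547, in the same order.

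In long 5′ UTRs both ends could be compared in the same molecule. In 383 5′ UTRs of at least 150 nt, nucleotides 7 to 56 minus the last 50 nt before the start codon had a median of 0.00112 for icSHAPE in vivo, with 193 higher, and -0.0150 for icLASER in vivo, with 177 higher. In vitro the medians were 0.0246 and 0.0267. The 95% order-statistic bounds of the in vivo medians, which cover the spread over 5′ UTRs only, were -0.0128 and 0.0178 for icSHAPE and -0.0314 and 0.0137 for icLASER. With every matching transcript in place of 1 per gene, the medians were -0.0257 (bounds -0.0402 and -0.0173) and -0.0309 (bounds -0.0403 and -0.0190). Transcripts of the same gene can share bases and reads but were counted separately there. Those bounds are therefore too narrow and cannot be set against the bounds with 1 per gene. The icLASER in vivo minus in vitro difference was -0.0513 at nucleotides 7 to 56, -0.0356 in the middle and -0.0211 in the last 50 nt of 5′ UTRs with all parts scored. The icSHAPE difference was 0.0133, 0.0355 and 0.0399 in the same parts.

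Around the start codon, single positions stood out from their neighbours. The last nucleotide before the codon had a mean icSHAPE score of 0.518 in vitro and 0.597 in vivo and a mean icLASER score of 0.454 and 0.40 over 1023 transcripts. The nucleotide before it had 0.146 and 0.139 for icSHAPE, and 0.185 and 0.131 for icLASER. At position -3, where the Kozak context favours a purine, 45.1% of transcripts had A and 39.7% had G, and the mean scores were 0.270 and 0.302 for icSHAPE and 0.307 and 0.246 for icLASER. The G of the start codon had icLASER scores of 0.474 and 0.343, the highest of the codon.

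In icSHAPE the scores ranged more widely by the letter that follows a nucleotide than by its own letter. In 5′ UTRs, nucleotides followed by A had a mean icSHAPE score of 0.359 in vivo, and those followed by U had 0.320. Nucleotides followed by C or G had 0.113 and 0.105. The last nucleotide of a 5′ UTR is followed by the A of the start codon in 99.7% of transcripts. Whether a part of the stops is recorded 1 nt away from the reacted base was not tested here.

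Across the start codon as a whole, the step was small beside the scores themselves. The 50 nt before minus the 50 nt from the start codon on had a median of 0.00254 for icSHAPE in vivo, with 526 of 1017 transcripts higher before it, and of 0.0121 for icLASER in vivo, with 571 higher. The difference between cells and refolded RNA was 0.0276 before and 0.0320 after for icSHAPE, and -0.0299 before and -0.0328 after for icLASER. The 95% bounds of the median step in vivo were -0.00230 and 0.0104 for icSHAPE and 0.00531 and 0.0212 for icLASER.

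A pattern that repeats every 3 nt was seen after the start codon and was weaker before it, a comparison made after the plot of single positions was seen. Averaged over nucleotides 7 to 48 of the CDS, icSHAPE scores in vivo were 0.261, 0.185 and 0.225 at codon positions 1, 2 and 3, a spread of 0.0755. In the same frame carried upstream, over nucleotides -48 to -7, they were 0.223, 0.206 and 0.210 in the 5′ UTR, a spread of 0.0170. For icLASER in vivo the spread was 0.0538 in the CDS and 0.0223 in the 5′ UTR. The spread was also larger in the CDS in vitro, with 0.0521 against 0.0126 for icSHAPE and 0.0702 against 0.0229 for icLASER. The part of base composition at the codon positions in this pattern was not tested.

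Longer 5′ UTRs had lower scores. The median icSHAPE score in vivo was 0.246 in 335 5′ UTRs under 100 nt, 0.220 from 100 to under 200 nt, 0.193 at 200 to 300 nt and 0.190 over 300 nt. The median icLASER score in vivo was 0.240, 0.197, 0.171 and 0.155 in the same classes. The icLASER order held within 5′ UTRs with a GC share of at least 65%, where the medians were 0.252, 0.214, 0.203 and 0.168, and within those under 65%, where they were 0.231, 0.179, 0.162 and 0.149. The icSHAPE order held under 65% GC, whereas at 65% or more the medians were 0.216, 0.209, 0.179 and 0.184. Over 534 5′ UTRs, the difference between the longest and the shortest class was -0.0551 for icSHAPE and -0.0853 for icLASER. Without the first 50 nt, which left 304 5′ UTRs, it was -0.0235 and -0.0574.

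The icSHAPE difference between cells and refolded RNA also went with length. Its median was -0.000146 in 5′ UTRs under 100 nt, with 166 of 335 higher in vivo, and 0.0345 in those over 300 nt, with 78.4% higher. The icLASER difference was -0.0527 in the shortest class, with 242 of 335 lower in vivo, and -0.0368 in the longest, with 82.4% lower.

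The GC share moved the 2 reagents in opposite directions. From the 229 5′ UTRs under 55% GC to the 267 of at least 70%, the median icSHAPE score in vivo went from 0.230 to 0.196 and the median icLASER score in vivo from 0.171 to 0.239. With the trinucleotide context removed, the icSHAPE values were 0.0499 and 0.0792, so that the order turned, and the icLASER values were 0.00404 and 0.0891. The icLASER difference between cells and refolded RNA was -0.0477 under 55% GC, with 188 of 229 lower, and -0.0339 at 70% or more, with 181 of 267 lower. GC share and length were themselves related, with a Spearman rho of -0.227 over 1034 5′ UTRs.

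The number of exons and the expression of the transcript were compared in the same way. Among 5′ UTRs of 100 to 300 nt, the 201 in a single exon and the 299 spliced from several had median icSHAPE scores in vivo of 0.20 and 0.215 and icLASER scores in vivo of 0.191 and 0.182. The icLASER difference was -0.0421 and -0.0401. In the 102 5′ UTRs of transcripts with an RPKM of at least 100, the icSHAPE difference was 0.00281 and the icLASER difference -0.0559, against 0.0296 and -0.0401 in the 597 under 20 RPKM.

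Among the bases, G carried most of the icLASER signal and most of its loss. At G in 5′ UTRs the icLASER scores averaged 0.369 in vitro and 0.287 in vivo, whereas A had means of 0.213 and 0.161. At U it was 0.151 and 0.122, and at C 0.112 and 0.107, so the pyrimidines moved less than the purines. G made up 31.2% of the scored nucleotides and A 18.8%. In icSHAPE the means in vivo were 0.242 at A, 0.229 at U, 0.193 at G and 0.158 at C, and the difference was between 0.0245 and 0.0309 at the 4 bases.

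Predicted pairing separated icSHAPE scores, whereas icLASER scores differed little over all bases pooled and more within A and within G. Pairing was predicted from sequence with RNAplfold on the 5′ UTR and the 150 nt after it. Nucleotides with an unpaired probability of at least 0.8 had a mean icSHAPE score of 0.255 in vitro and 0.287 in vivo, against 0.112 and 0.133 for those under 0.2. For icLASER the means were 0.234 and 0.175 against 0.201 and 0.171. Base composition differs between these classes, and at G alone the icLASER mean in vivo was 0.392 at unpaired and 0.238 at paired nucleotides. At A alone it was 0.182 and 0.123. The icLASER difference between cells and refolded RNA at G was -0.107 at unpaired and -0.0631 at paired nucleotides.

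The 5′ UTRs with the largest differences were named among the 351 with at least 60 scored nt and a mean RPKM of at least 20. They were chosen for the difference, so it is given as a description. The lowest icSHAPE difference belonged to XRCC6, the Ku70 subunit of the DNA end-binding complex, with icSHAPE scores of 0.542 in vitro and 0.246 in vivo and icLASER scores of 0.615 and 0.456. Of its 60 scored nt, 48 were lower in vivo in icSHAPE and 9 were higher. In RPL41, a short protein of the large ribosomal subunit, the icSHAPE scores were 0.420 and 0.191 and the icLASER scores 0.428 and 0.301.

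PSMD4, a ubiquitin receptor of the proteasome, and NFE2 were the next lowest in icSHAPE. PSMD4 had icSHAPE scores of 0.348 in vitro and 0.203 in vivo and icLASER scores of 0.425 and 0.360. NFE2 had 0.331 and 0.192, and 0.321 and 0.237. In all 4 of these 5′ UTRs the icLASER mean was lower in vivo too, and the icSHAPE difference of the CDS was between -0.00955 and 0.0642, so the loss was not seen over the CDS.

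LYAR, a nucleolar protein, had the highest icSHAPE difference, with icSHAPE scores of 0.0804 in vitro and 0.313 in vivo and icLASER scores of 0.171 and 0.0876. The mitochondrial chaperonin HSPD1 had icSHAPE scores of 0.128 and 0.349 and icLASER scores of 0.187 and 0.0826. For HNRNPA2B1, a nuclear RNA-binding protein, they were 0.146 and 0.344, and 0.263 and 0.166. These 3 were higher in icSHAPE and lower in icLASER in vivo, also after each profile was divided by its own mean. SKP1, a subunit of SCF ubiquitin ligases, had icSHAPE scores of 0.137 and 0.296 and icLASER scores of 0.122 and 0.112.

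In icLASER, NDUFV2, EEF1B2 and SLC3A2 were among the 5′ UTRs with the lowest difference. NDUFV2 had icLASER scores of 0.343 in vitro and 0.0737 in vivo and icSHAPE scores of 0.179 and 0.0632. In icLASER, 29 of its 95 scored nt were lower in vivo and 3 were higher. Most of its scored nt thus had the same score in both conditions, and its difference rests on a minority of them. How many stops lie behind these scores is unknown. EEF1B2, an exchange factor subunit of translation elongation factor 1, had icLASER scores of 0.366 and 0.114 and icSHAPE scores of 0.242 and 0.227. SLC3A2, the heavy chain of amino acid transporters, was split between the reagents, with icLASER scores of 0.356 and 0.133 and icSHAPE scores of 0.299 and 0.450.

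The CDS of the same messages did not share this loss. The icLASER difference of the CDS was 0.104 in NDUFV2, 0.0373 in EEF1B2 and 0.0115 in SLC3A2, against -0.269, -0.252 and -0.223 in their 5′ UTRs.

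The highest icLASER differences were found in LAPTM4B, CIB1, TRIM28 and COX4I1. LAPTM4B, a lysosomal membrane protein, had icLASER scores of 0.0680 in vitro and 0.199 in vivo and icSHAPE scores of 0.0774 and 0.0984 over 657 scored nt, of which 196 were higher and 43 lower in icLASER. CIB1, a calcium-binding protein, had icLASER scores of 0.309 and 0.433 with icSHAPE scores of 0.225 and 0.128. TRIM28, a transcriptional corepressor, had a 5′ UTR with 80.4% GC, icLASER scores of 0.326 and 0.437 and icSHAPE scores of 0.176 and 0.245. In COX4I1, a subunit of cytochrome c oxidase, the icLASER scores were 0.159 and 0.265 and the icSHAPE scores 0.168 and 0.285. Only CIB1 among these 4 had a lower icSHAPE mean in vivo.

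The TOP mRNAs encode ribosomal proteins and translation factors, and their translation is set by mTOR through an oligopyrimidine tract that begins with C at the cap. The list gave 64 members, none of them the MANE Select transcript, and only 13 had an annotated start of C with at least 4 further pyrimidines, against 51 of all 1034 5′ UTRs (4.93%). The remaining 51 thus lacked the tract at their annotated end. The tract is shown for the 4 of highest RPKM with it, by the first 20 nt of the transcript, with the unbroken run of pyrimidines in capitals.
RPS18 (chr6:33272075-33272094, plus strand): CTCTCTTCCacaggaggcct
RPL32 (chr3:12841527-12841546, minus strand): CCCTTCTCTCTTCCTCggcg
RPS19 (chr19:41860257-41860276, plus strand): CTTTCCCCTggctggcagcg
RPLP0 (chr12:120201091-120201110, minus strand): CTTCTCTCgccaggcgtcct

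In TOP mRNAs the icLASER scores were lower in cells in most members. The median icLASER difference over the 64 5′ UTRs was -0.0751, with 55 lower (85.9%), against -0.0433 over all 1034, with 76.5% lower. Of the 64, 38 were lower by at least 0.05 (59.4%), against 45.6% of all 5′ UTRs, and 2 were higher by at least that much (3.12%, against 7.35%). The median icSHAPE difference was 0.00150, with 28 of 64 lower, against 0.0238 over all, with 34.4% lower. Among transcripts with an RPKM of at least 100, the icLASER difference was -0.0751 in 58 TOP members and -0.0493 in 44 others. The icSHAPE difference was 0.00150 in these TOP members, with 26 of 58 lower, and 0.0144 in the others, with 19 of 44 lower. At this expression the share lower in icSHAPE was thus similar in both groups. Over all 64 TOP members, the 13 with the annotated tract had -0.0516 and the 51 without it -0.0836.

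Single ribosomal protein genes covered a wide range. RPL12 had icSHAPE scores of 0.436 in vitro and 0.312 in vivo and icLASER scores of 0.308 and 0.141. RPL32 had 0.249 and 0.167, and 0.267 and 0.230. RPLP1, with 0.258 and 0.252, and 0.186 and 0.140, moved less in icSHAPE. In RPS18 the scores were 0.232 and 0.220, and 0.223 and 0.173, and in RPS19 they were 0.199 and 0.203, and 0.172 and 0.138. In these last 2, 210 of 296 and 212 of 245 nt of the 5′ UTR were coding in another transcript, and the icLASER mean was lower in vivo in all 5 of these genes.

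Of the 6 genes on the list of iron-responsive elements, FTH1, the ferritin heavy chain, was the 1 member. The element is a stem with a bulged C and a loop that begins with the letters CAGTG, and iron regulatory proteins bind it and block translation when iron is low. The letters CAGTG were searched on the transcript strand and occurred in 186 of the 1034 5′ UTRs (18%). The stretch below holds nucleotides 6 to 35 of the transcript, with the 6 nt of the loop in capitals.
FTH1 (chr11:61967573-61967602, minus strand): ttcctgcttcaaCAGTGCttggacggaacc

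Both reagents had lower scores in cells at this element, and the icLASER difference was the larger over the loop and over the whole stretch shown. Over the loop, icSHAPE scores averaged 0.965 in vitro and 0.852 in vivo, and icLASER scores 0.849 and 0.223. This icLASER loss was not confined to purines. The T of the loop went from 1.00 to 0.148 and its last C from 0.964 to 0.138. Its A went from 1.00 to 0.219, and its G from 1.00 to 0.560 and 0.274. Most icSHAPE scores in the loop stood at the upper limit of the scale in both conditions, where no difference can be seen, and at its first nucleotide icSHAPE was 0.789 and 0.119. In the 5 nt before the loop, icSHAPE was 0.823 and 0.471 and icLASER 0.406 and 0.116. There the icSHAPE difference was the larger, with -0.352 against -0.289. Over the 29 scored nt shown, the icSHAPE score was 0.576 and 0.423 and the icLASER score 0.457 and 0.101, whereas over the other 147 scored nt of the 5′ UTR they were 0.147 and 0.207, and 0.0853 and 0.156. The whole 5′ UTR therefore had an icLASER difference of 0.000125 and gave no sign of the local change. The element lies near the 5′ end, where the icLASER difference over all 5′ UTRs was most negative. It was -0.0693 at nucleotides 7 to 20 and -0.0595 at nucleotides 21 to 40. The contrast with the rest of the 5′ UTR thus mixes the element with its position. Other FTH1 transcripts share these exons, so this is not evidence apart from theirs.

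Of 9 genes listed for upstream open reading frames and translation under stress, 4 were members, and all 4 had lower icLASER and higher icSHAPE means in cells, as 51.3% of all 5′ UTRs did. ATF4, a stress transcription factor, had icSHAPE scores of 0.0755 in vitro and 0.102 in vivo and icLASER scores of 0.119 and 0.0825. DDIT3, the factor CHOP, had 0.198 and 0.244, and 0.270 and 0.234. EPRS1, a glutamyl-prolyl-tRNA synthetase, had 0.383 and 0.455, and 0.402 and 0.326. For SLC35A4, whose upstream frame encodes a small protein, the 1657 scored nt gave 0.0897 and 0.143, and 0.129 and 0.0539. The 4 icLASER differences lay between -0.0765 and -0.0362, near the median of all 5′ UTRs.

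Of 11 genes listed for long or structured 5′ UTRs, 4 were members. MYC had icSHAPE scores of 0.208 in vitro and 0.209 in vivo and icLASER scores of 0.292 and 0.216, and all 374 nt of this 5′ UTR were coding in another annotated transcript. ODC1, the first enzyme of polyamine synthesis, had 0.154 and 0.166, and 0.266 and 0.165. MCL1, a survival factor of the BCL2 family, had 0.177 and 0.239, and 0.232 and 0.0940, and the cyclin CCND3 had 0.199 and 0.253, and 0.308 and 0.289. The icLASER mean was lower in vivo in all 4, as in 76.5% of all 5′ UTRs.

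At the ends of the range of length, FAM83A had the longest 5′ UTR, 2014 nt with 343 scored, and icSHAPE scores of 0.128 in vitro and 0.122 in vivo with icLASER scores of 0.167 and 0.125. HMMR was among 9 with the shortest, 36 nt, and had icSHAPE scores of 0.249 and 0.313 and icLASER scores of 0.247 and 0.125 over 30 scored nt. Just inside the limit on scored nucleotides, 28 genes had 30 to 32, among them COX17 and GPX4 with 30 and HBA1 and RPL15 with 31. Just outside it, 21 genes had 27 to 29, among them B2M and EIF4A2 with 28 and DDT and ENSA with 29.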

How the data were processed

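The authors trimmed reads with Trimmomatic, aligned them with Bowtie2 to the Ensembl release 88 GRCh38 transcriptome and ran the icSHAPE pipeline, with both limits of its last filter set to 0. They deposited, per pooled profile and transcript, the length, an RPKM value and for each nucleotide an enrichment score scaled to run from 0 to 1. Of all deposited scores, 13 in icSHAPE in vitro and 3 in icSHAPE in vivo lay outside that range and were used as they stood. Polyadenylated RNA was sequenced. Regions came from GENCODE release 44 (Ensembl release 110).

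From the deposited values, means per region over nucleotides scored in all 4 profiles, medians over 5′ UTRs and counts were computed with Python 3.11.15, numpy 2.4.6, pandas 2.3.3 and scipy 1.17.1, pairing with ViennaRNA 2.7.2 (window 150, span 100), and figures with matplotlib 3.10.9. The functions were tested on simulated data. No p-value was computed, since each profile is 1 pool and 5′ UTRs are not replicates. The members and lists were chosen with earlier results of these data known. Named were, per reagent, the 4 lowest and 4 highest 5′ UTRs and the 3 lowest and 3 highest stretches of 30 nt by difference, list members (6 TOP examples) and the ends of the range. TOP mRNAs were the RPL and RPS genes (no kinases or like-named relatives) and a fixed list of other genes, mostly translation factors. Alternatives were every matching transcript, at least 100 scored nt, an RPKM of at least 20, context removed, division by the profile mean, the first 50 nt left out and another folding window. Membership of isoforms and a CDS stretch of equal length were added after seeing the data. Some items that the naming rule selects are not reported here.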

Additional observations from a re-analysis of the deposited data

Results flagged for a closer look

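The same contrast, in vivo against in vitro, moved 5′ UTRs in opposite directions with the 2 reagents: the median icLASER difference over 5′ UTRs was -0.0433 and the median icSHAPE difference was 0.0238. There is 1 pooled profile per reagent and condition, so the difference between the reagents was not tested, and the icSHAPE sign turned when each profile was divided by its own mean.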

How the results depend on the processing

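No paired analysis was possible because the replicates are pooled in the deposited profiles, and for the same reason no replicate could be left out. A value counts as moved where it left the 95% order-statistic bounds of the median over 5′ UTRs, which do not cover variation between libraries. The icSHAPE difference, 0.0238, was 0.0271 with every matching transcript, 0.0296 with at least 100 scored nt, 0.0159 at an RPKM of at least 20, 0.00283 with context removed, -0.00938 with each profile divided by its own mean and 0.0299 without the first 50 nt. Removing context also takes out the offset between the profiles of a reagent. The icLASER difference, -0.0433, was -0.0348 with every matching transcript and -0.0351 without the first 50 nt. The icSHAPE excess of 5′ UTR over CDS in vivo, 0.0204, was 0.0121 with at least 100 scored nt, 0.0353 at an RPKM of at least 20, 0.0530 with context removed and 0.00695 without the first 50 nt. The icLASER excess, 0.0190, was 0.00405 with every matching transcript, -0.000862 with at least 100 scored nt, 0.0284 with context removed and -0.000701 without the first 50 nt. With context removed, the icSHAPE step between high and low GC went from -0.0343 to 0.0293, and the steps at the start codon were 0.0178 and 0.0225 (icSHAPE and icLASER). With every matching transcript, the icSHAPE difference between nucleotides 7 to 56 and the last 50 nt was -0.0257, and its step at the start codon was 0.0118. The icLASER step there was 0.00057 with at least 100 scored nt. Without the first 50 nt, long minus short was -0.0235 and -0.0574. Added after seeing the data were a CDS stretch of equal length (icSHAPE excess 0.00439, moved) and 5′ UTRs with no nucleotide coding elsewhere (icLASER excess 0.0258, moved, and icSHAPE step at the start codon -0.00168, within the bounds of 0.00254). The causes were not tested. RNAplfold with window 80 and span 40 gave an icSHAPE step of 0.139 between unpaired and paired nucleotides, against 0.154. No value with at least 100 scored nt exists for the step by length. Depth cannot be read from the profiles.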
